A study of Mus musculus with 8 samples.

Results

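The genes examined here are 10 mouse genes of Notch signalling, out of the 15653 genes that the arrays could name. They are the receptors Notch1, Notch2, Notch3 and Notch4, the ligands Jag1, Jag2 and Dll1, and the target genes Hes1, Hey1 and Heyl. They were taken by gene symbol, through the RefSeq transcript that names each probe set, and each was measured by 1 probe set. All 10 were found.

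The study compared 3 mouse lines that come from p53-null fetal fibroblasts: in Ind-8 a p53 cDNA behind a modified human metallothionein promoter is switched on by zinc and the cells divide asymmetrically (ASYM), while Con-3 has no p53, divides symmetrically (SYM), and is a vector control in the study's methods but the congenic parent of Ind-8 in the sample labels. The tI-3 cells were derived from Ind-8, switch on p53 in zinc, also express at all times a cDNA for IMPDH II, an enzyme of guanine nucleotide synthesis, and divide symmetrically (p53SYM). Every culture was kept for 48 h in medium with 65 µM ZnCl2 and 5 µg/ml puromycin, that of tI-3 also with G418 (1 µg/ml in the labels, 1 mg/ml in the methods), and independent preparations of RNA were hybridized to 3 arrays for Ind-8, 3 for Con-3 and 2 for tI-3. Each state is 1 line, so state, line and, for tI-3, the added drug cannot be told apart, and the p-values below measure the spread between preparations of a line.

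Notch receptors are membrane proteins that are activated by Delta and Jagged ligands on adjacent cells. Binding leads to cleavage by ADAM proteases and then by gamma-secretase, and the freed intracellular domain joins RBPJ and Mastermind proteins in the nucleus, where it switches on genes such as those of the HES and HEY repressors. The pathway is known for giving sister cells unequal fates, and in mesenchymal cells it takes part in the choice between growth and differentiation.

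Values are log2 expression summarized by RMA, and differences are between line means on that scale. A gene was called when limma, fitted over all 22523 probe sets, gave a Benjamini-Hochberg adjusted p under 0.05. The rank product test of the study's methods stands beside it, with calls at a pfp (its estimated share of false positives) under 0.05. The 3 comparisons share arrays, since each line enters 2 of them, and their results are given side by side as each comparison's own values.

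Of the genes that check the labels, Trp53, the p53 gene, measured 5.68, 5.87 and 5.80 in Ind-8, 5.21, 5.29 and 5.27 in Con-3, and 5.60 and 5.69 in tI-3, so both lines with the cDNA lay above the line without it. The p53 target Cdkn1a, a cyclin-dependent kinase inhibitor, averaged 9.66 in Ind-8, 5.86 in Con-3 and 7.44 in tI-3. Impdh2, the mouse gene of IMPDH II, averaged 12.19 in Ind-8, 12.53 in Con-3 and 12.36 in tI-3, and was called lower in Ind-8 than in Con-3 (-0.34, 95% interval -0.52 to -0.17, limma adjusted p = 0.0108). Its Ind-8 minus tI-3 difference, -0.17, did not pass the test (95% interval -0.36 to 0.03, limma adjusted p = 0.163), and whether this probe set detects the transcript of the added cDNA was not tested. The metallothionein gene Mt1, which zinc induces, averaged 13.88, 13.73 and 13.62 in the same order, and Mt2 averaged 13.33, 13.45 and 13.07 and was called lower in tI-3 than in Con-3 (-0.39, limma adjusted p = 0.0248), in 13 of 17 alternative fits and not with the covariate (-0.32) or after another quantile normalization (-0.18).

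Of 10 fibroblast markers, Vim had the brightest probe set at a mean of 13.89 over the 8 arrays, and 2, Thy1 and Lum, lay at the dim end, under the 25th percentile of all probe sets (4.30). Their summed level, which follows the brightest probe sets and does not measure how abundant the genes are relative to each other, was 15.11, 15.24 and 15.26 in Ind-8, 14.77, 14.90 and 14.97 in Con-3, and 14.72 and 14.69 in tI-3. By limma 2 were called higher and 1 lower in Ind-8 against Con-3, 5 and 1 in Ind-8 against tI-3, and 3 and 3 in tI-3 against Con-3, where 10.9% and 11.0%, 15.6% and 15.5%, and 10.2% and 15.1% of all probe sets were called higher and lower. Col3a1, Pdgfra and Col1a1 averaged 8.80, 7.54 and 12.34 in Ind-8, 9.07, 7.06 and 11.91 in Con-3, and 6.38, 6.02 and 10.85 in tI-3. Thy1, Twist1 and Prrx1 had their highest line means in tI-3 (4.56, 7.95 and 8.57). The part of these markers in the Notch differences was not tested.

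Some arrays stood apart. On Con-3 replicate 3 the control probe sets for small-subunit ribosomal RNA reached 11.38 at the 3′ end and 10.97 at the 5′ end, where the other arrays gave 6.59 to 7.67 and 4.55 to 5.25. The hybridization controls averaged 10.44 on that array and 10.24 and 10.46 on the tI-3 arrays, against 9.88 to 10.00 on the other arrays. The actin controls differed between their 3′ and 5′ ends by 0.19, 0.14 and 0.16 in Ind-8, 0.12, 0.14 and 0.11 in Con-3, and 0.06 and 0.07 in tI-3, in which the lines do not overlap and stand in the order of Notch1 below. The Gapdh controls gave -0.11, -0.20 and -0.21 in Ind-8 and -0.21, -0.20 and -0.18 in Con-3. They gave -0.21 on both tI-3 arrays, and the lines overlapped. The transferrin receptor controls differed by 1.90 on Ind-8 replicate 1 and by 1.00 to 1.47 on the others. The part of these controls in the Notch differences was not tested. For the Notch and pathway genes named below, the text says where a call ends without Con-3 replicate 3. The control level and the line tI-3 largely cannot be told apart, because both of its arrays are high, and for the same genes the text says where a call ends when that level enters the fit as a covariate.

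Among the receptors, Notch1 and Notch3 differed between lines. Notch1, the broadly expressed receptor, measured 7.51, 7.75 and 7.69 in Ind-8, 6.80, 6.75 and 6.93 in Con-3, and 5.88 and 6.11 in tI-3. The 3 lines did not overlap, with Ind-8 highest, Con-3 between and tI-3 lowest. Its mean lay at the 66.7th percentile of all probe sets in Ind-8, the 57.5th in Con-3 and the 48.3rd in tI-3.

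The Ind-8 mean of Notch1 was 0.83 above that of Con-3 (SE 0.10, 95% interval 0.60 to 1.06, limma adjusted p = 5.02e-04), which is a 1.77-fold difference. It was 1.66 above that of tI-3 (SE 0.12, 95% interval 1.40 to 1.92, limma adjusted p = 1.66e-05), which is 3.16-fold. Between tI-3 and Con-3 the difference was -0.83 (SE 0.12, 95% interval -1.09 to -0.57, limma adjusted p = 6.87e-04). Each neighbouring pair in this order thus differed by more than the spread between preparations. Without Con-3 replicate 3 the difference to Ind-8 was 0.88 and that to tI-3 was -0.78. All 3 calls held in each of the 17 alternative fits. The rank product test called Notch1 in Ind-8 against tI-3 (pfp = 0.0066) but not in Ind-8 against Con-3 (pfp = 0.0631) or tI-3 against Con-3 (pfp = 0.138), and its call was lost without Ind-8 replicate 2 or Ind-8 replicate 3, where 0 of the 10 genes were called by it.

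Notch3, a receptor of vascular smooth muscle and pericytes, measured 4.98, 4.95 and 5.11 in Ind-8, 4.23, 4.33 and 4.37 in Con-3, and 4.38 and 4.55 in tI-3. Ind-8 lay above both other lines on every array, while the tI-3 arrays lay only just above those of Con-3. The probe set is of low level, at the 38.4th percentile in Ind-8 and the 25.4th in Con-3. The Ind-8 mean was 0.70 above Con-3 (SE 0.09, 95% interval 0.50 to 0.90, limma adjusted p = 6.25e-04) and 0.55 above tI-3 (SE 0.10, 95% interval 0.32 to 0.77, limma adjusted p = 0.0039). The tI-3 minus Con-3 difference, 0.15, did not pass the test (95% interval -0.07 to 0.38, limma adjusted p = 0.309). Both Ind-8 calls held in each of the 17 alternative fits, and the difference to Con-3 was 0.73 without Con-3 replicate 3. The rank product test did not call it (pfp = 0.105 against Con-3 and 0.396 against tI-3).

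Notch1 and Notch3 were the members called higher in Ind-8 than in either other line, so the 250 bases before their annotated starts are shown. The sequences are from RefSeq on GRCm38.p6, the promoter of Notch1 at chr2:26503823-26504072 and that of Notch3 at chr17:32166891-32167140, both on the minus strand and written 5′ to 3′ in the direction of the gene. Capitals mark matches to the N-box CACNAG, a letter pattern bound by HES proteins, on either strand.
Notch1: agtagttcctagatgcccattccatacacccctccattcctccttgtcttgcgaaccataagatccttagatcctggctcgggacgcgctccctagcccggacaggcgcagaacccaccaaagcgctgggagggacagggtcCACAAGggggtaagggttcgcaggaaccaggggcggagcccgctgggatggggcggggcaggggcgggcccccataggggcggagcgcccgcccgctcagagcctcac
Notch3: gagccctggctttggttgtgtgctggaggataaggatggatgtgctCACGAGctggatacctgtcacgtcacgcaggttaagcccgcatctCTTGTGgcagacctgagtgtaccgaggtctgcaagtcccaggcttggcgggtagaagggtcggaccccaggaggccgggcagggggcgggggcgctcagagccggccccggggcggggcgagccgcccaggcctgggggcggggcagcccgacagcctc
Windows from 250 bases before to 50 after the start were searched on both strands for the RBPJ core TGGGAA, the E-box CACGTG, the N-box and the p53 half-site, in the 7 members with an entry (Jag1, Jag2, Dll1 and the 4 receptors, 8 windows in all). The N-box occurred in 4 of the 7, Notch1, Notch2, Notch3 and Dll1, and in 42.5% of all 32851 promoters. In Notch1 it lay at -108 to -103, and a pair of overlapping matches on opposite strands ran across the start. In Notch3 it lay at -204 to -199 and at -159 to -154. None of these windows held the RBPJ core, the E-box or the p53 half-site, whose letters occur in 25.6%, 7.15% and 8.36% of all promoters. These are matches of letters in these windows only.

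The other receptors differed less. Notch2, a broadly expressed receptor, measured 7.55, 7.62 and 7.73 in Ind-8, 7.44, 7.57 and 7.65 in Con-3, and 7.80 and 7.93 in tI-3. Ind-8 and Con-3 overlapped, and tI-3 lay above both. Against Con-3 the tI-3 difference of 0.31 (95% interval 0.08 to 0.55) narrowly missed the threshold (limma adjusted p = 0.052), and passed it without Con-3 replicate 3 at 0.36 (limma adjusted p = 0.0456, with adjusted p from 0.0174 to 0.276 over the 17 alternative fits). Between Ind-8 and tI-3 it was -0.23 (95% interval -0.47 to -3.17e-04, limma adjusted p = 0.114) and the Ind-8 minus Con-3 difference was 0.08 (95% interval -0.13 to 0.29, limma adjusted p = 0.601).

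Notch4, the receptor of endothelial cells, measured 4.01, 3.91 and 3.96 in Ind-8, 3.73, 4.08 and 3.87 in Con-3, and 4.27 and 4.24 in tI-3. All of these values lie at the dim end of the arrays. tI-3 lay above the other lines, with a tI-3 minus Con-3 difference of 0.36 (95% interval 0.11 to 0.61, limma adjusted p = 0.0413). The Ind-8 minus tI-3 difference was -0.29 (95% interval -0.54 to -0.04, limma adjusted p = 0.0757), and the Ind-8 minus Con-3 difference was 0.07 (95% interval -0.16 to 0.29, limma adjusted p = 0.679). The call against Con-3 was lost without Con-3 replicate 3 (0.35, limma adjusted p = 0.0779) and with the covariate (0.35, limma adjusted p = 0.104), and held in only 5 of the 16 alternative fits that kept this probe set, where its adjusted p ran from 0.0213 to 0.147.

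**Figure D1:**
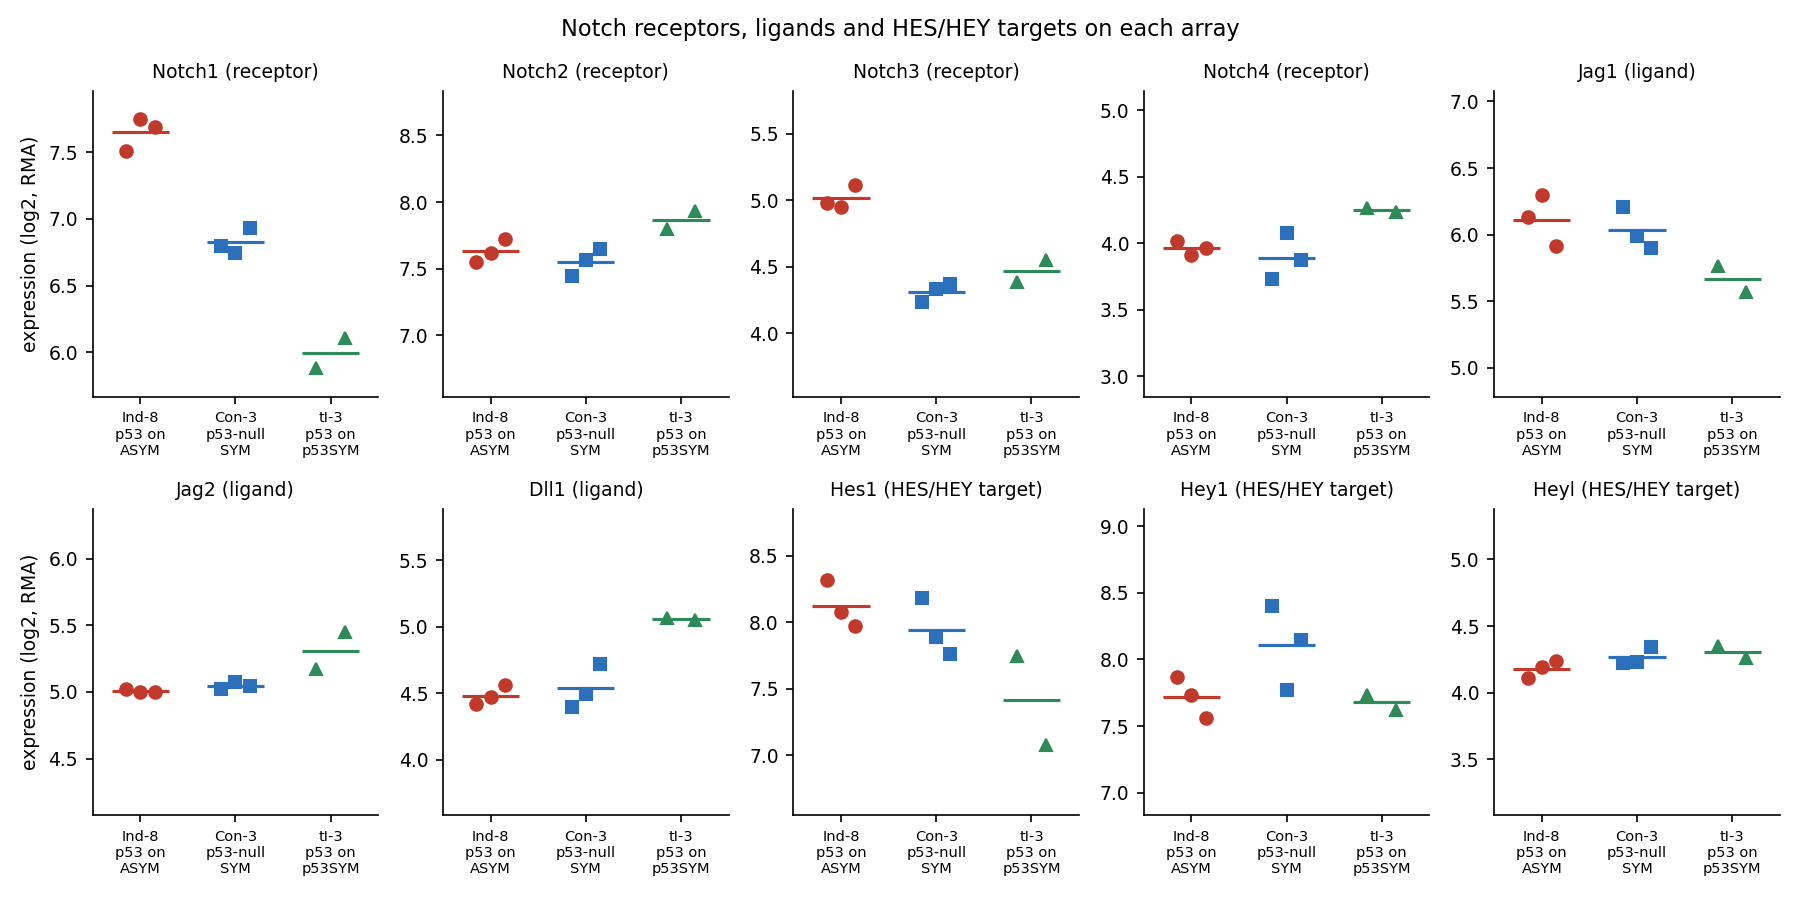
Log2 expression of the 10 genes on each of the 8 arrays, with 1 panel per gene, 1 point per array in replicate order and a bar at each line mean; every panel spans the same log2 range. Notch1 falls into 3 separate levels, Notch3 is higher in Ind-8, Dll1 is higher in tI-3, and the tI-3 arrays of Hes1 lie apart at 7.75 and 7.08.

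Of the ligands, Dll1 was called in tI-3 against both other lines, Jag1 and Jag2 only between Ind-8 and tI-3, and Ind-8 and Con-3 overlapped for all 3. Dll1, a Delta ligand, measured 4.42, 4.47 and 4.56 in Ind-8, 4.40, 4.49 and 4.72 in Con-3, and 5.07 and 5.05 in tI-3. Both tI-3 arrays lay above every other array. The probe set is of low level, at the 30.7th percentile in Ind-8, the 30.2nd in Con-3 and the 36.6th in tI-3. The tI-3 mean was 0.52 above Con-3 (SE 0.11, 95% interval 0.27 to 0.77, limma adjusted p = 0.0069), or 0.62 above it without Con-3 replicate 3. From tI-3, Ind-8 differed by -0.58 (SE 0.11, 95% interval -0.83 to -0.33, limma adjusted p = 0.0045). The call against Con-3 held in all 17 alternative fits. The call against Ind-8 held in 16 and was lost with the hybridization controls as a covariate (-0.37, limma adjusted p = 0.206, with the other fits down to 0.0024). Ind-8 and Con-3 differed by -0.05 (95% interval -0.28 to 0.17, limma adjusted p = 0.752), a difference that turned to 0.04 without Con-3 replicate 3, 0.03 after another quantile normalization and 0.05 with the covariate.

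Jag1, a Jagged ligand, ran the other way. It measured 6.13, 6.30 and 5.91 in Ind-8, 6.21, 5.99 and 5.90 in Con-3, and 5.76 and 5.57 in tI-3. The tI-3 arrays were the lowest, though close to the lowest arrays of the other lines. The Ind-8 mean was 0.45 above tI-3 (SE 0.14, 95% interval 0.14 to 0.75, limma adjusted p = 0.0325). Against Con-3 the tI-3 difference was -0.37 (95% interval -0.67 to -0.06, limma adjusted p = 0.0779), or -0.43 without Con-3 replicate 3, and did not pass the test. The call against Ind-8 was lost without Ind-8 replicate 1 (0.44), without Ind-8 replicate 2 (0.36), without either tI-3 array (0.545 without replicate 1 and 0.35 without replicate 2) and with the covariate (0.21), with adjusted p from 0.0101 to 0.583 over the 17 alternative fits. Between Ind-8 and Con-3 the difference was 0.08 (95% interval -0.19 to 0.36, limma adjusted p = 0.689), with a sign that turned without Ind-8 replicate 2 and with the covariate.

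Jag2, the other Jagged ligand, measured 5.02, 5.00 and 5.00 in Ind-8, 5.02, 5.08 and 5.04 in Con-3, and 5.17 and 5.45 in tI-3. The tI-3 arrays lay above the others but were spread more widely. The Ind-8 minus tI-3 difference of -0.30 (SE 0.10, 95% interval -0.53 to -0.07) was called by a small margin (limma adjusted p = 0.0479), and the call held in only 5 of 17 alternative fits, where its adjusted p ran from 0.0271 to 0.462. It was lost when any of 7 arrays was left out, tI-3 replicate 2 (-0.16) and every Ind-8 and Con-3 array, and with the covariate (-0.22), and held without tI-3 replicate 1 (-0.44). The difference of tI-3 from Con-3 was 0.26 (95% interval 0.03 to 0.49, limma adjusted p = 0.0888), or 0.40 without tI-3 replicate 1 and 0.12 without tI-3 replicate 2. It was called in 1 of the 17 alternative fits. Ind-8 and Con-3 differed by -0.04 (95% interval -0.24 to 0.17, limma adjusted p = 0.808), and after another quantile normalization by 0.0078 and with the covariate by 9.0e-04.

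Of the 3 targets Hes1, Hey1 and Heyl, Hes1 was called, in 1 comparison. Hes1, a basic helix-loop-helix repressor and a direct Notch target, measured 8.32, 8.07 and 7.97 in Ind-8, 8.18, 7.89 and 7.76 in Con-3, and 7.75 and 7.08 in tI-3. Ind-8 and Con-3 overlapped. The tI-3 arrays were the lowest, but tI-3 replicate 1 lay next to the lowest Con-3 array while tI-3 replicate 2 lay far below. The Ind-8 mean was 0.71 above tI-3 (SE 0.20, 95% interval 0.27 to 1.14, limma adjusted p = 0.0215), which is 1.63-fold. Without tI-3 replicate 2 it was 0.37 (limma adjusted p = 0.217) and the call was lost, as it was without Ind-8 replicate 1 (0.61), after another quantile normalization (0.55) and with the covariate (0.30), with adjusted p from 0.0022 to 0.555 over the 17 alternative fits. The tI-3 minus Con-3 difference was -0.53 (95% interval -0.96 to -0.10, limma adjusted p = 0.0725), or -0.62 without Con-3 replicate 3. Without tI-3 replicate 1 this difference was -0.86, without tI-3 replicate 2 it was -0.20, and 2 of the 17 alternative fits called it. Between Ind-8 and Con-3 it was 0.18 (95% interval -0.21 to 0.57, limma adjusted p = 0.522), and -0.02 with the covariate.

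Hey1, a related repressor, measured 7.87, 7.73 and 7.56 in Ind-8, 8.40, 7.77 and 8.15 in Con-3, and 7.73 and 7.62 in tI-3. The Con-3 arrays tended to be higher but were the most spread, and Ind-8 overlapped both lines. No comparison passed the test. The Ind-8 minus Con-3 difference was -0.38 (95% interval -0.72 to -0.05, limma adjusted p = 0.099), and -0.55 without Con-3 replicate 2, where it passed (limma adjusted p = 0.0179, with adjusted p up to 0.261 over the 17 alternative fits). The tI-3 minus Con-3 difference was -0.43 (95% interval -0.80 to -0.06, limma adjusted p = 0.0888), and it passed without Con-3 replicate 2 at -0.60. Without Con-3 replicate 3 these were -0.36 and -0.41. Between Ind-8 and tI-3 the difference was 0.04 (95% interval -0.33 to 0.42, limma adjusted p = 0.856), and after another quantile normalization it was -0.14.

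Heyl, a further HEY repressor, measured 4.11, 4.19 and 4.24 in Ind-8, 4.22, 4.23 and 4.35 in Con-3, and 4.35 and 4.26 in tI-3. Its mean lies at the dim end, and the lines lay close together. The Ind-8 minus Con-3 difference was -0.09 (95% interval -0.28 to 0.11, limma adjusted p = 0.535). The Ind-8 minus tI-3 difference was -0.12 (95% interval -0.34 to 0.09, limma adjusted p = 0.339) and that of tI-3 from Con-3 was 0.04 (95% interval -0.17 to 0.25, limma adjusted p = 0.797), and both turned their sign after another quantile normalization (0.06 and -0.07).

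**Figure D2:**
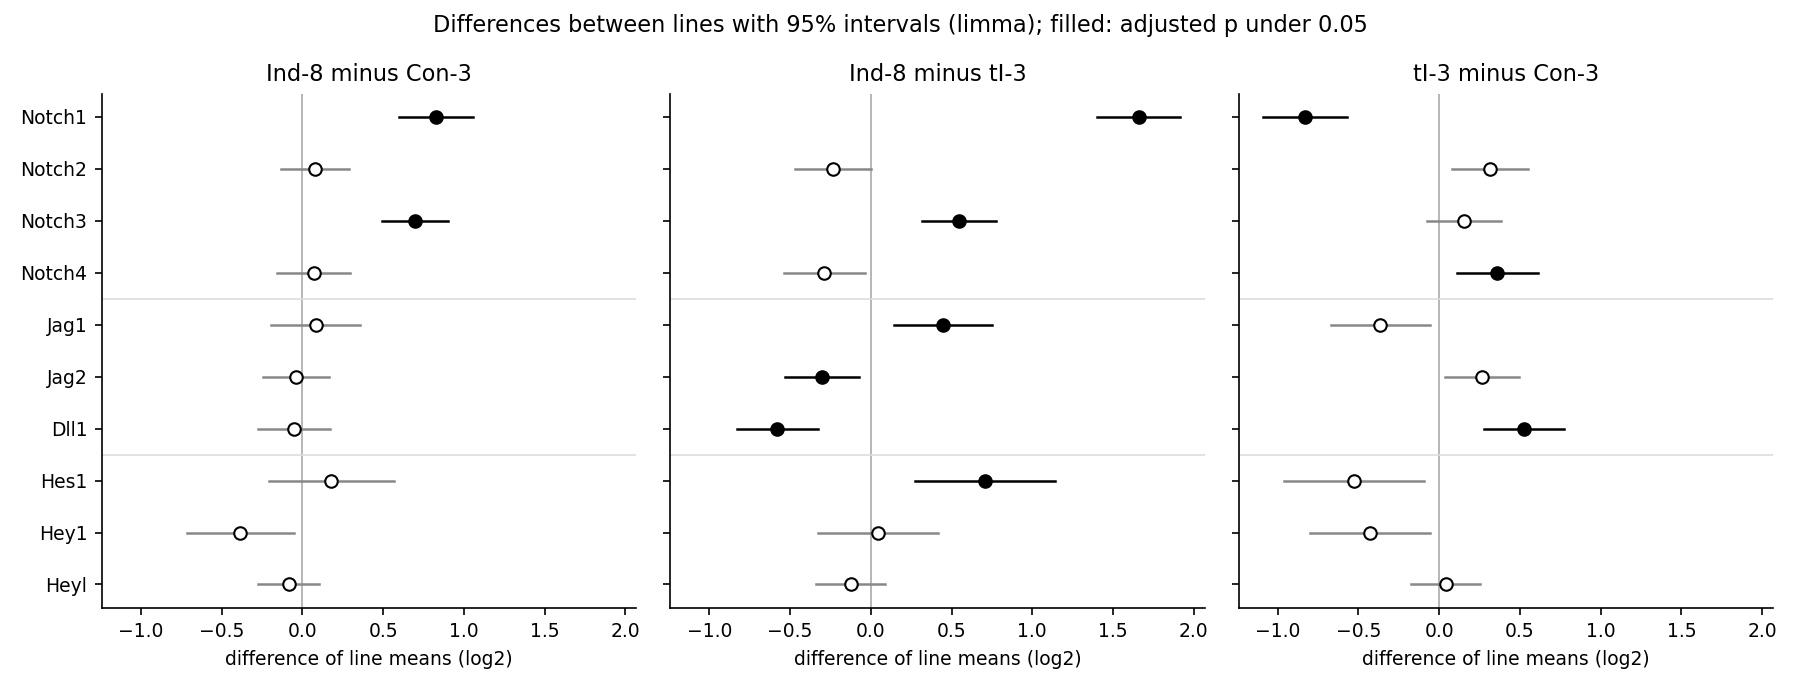
Differences of line means (log2) of the 10 genes in the 3 comparisons, with 95% intervals from limma; filled points passed an adjusted p of 0.05, and grey lines part receptors, ligands and targets. Notch1 and Notch3 are the filled points of the Ind-8 minus Con-3 panel, at 0.83 and 0.70.

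In Ind-8 against Con-3, 2 of the 10 genes were called higher and 0 lower, where 10.9% of all probe sets were called higher and 11.0% lower. At an unadjusted p under 0.05, limma gave 2 higher and 1 lower (Hey1), and the rank product test gave 0 calls by pfp and 3 at an unadjusted p under 0.05, where the unadjusted shares of all probe sets were 15.5% higher and 17.9% lower by limma and 21.0% by rank product. It called 3.65% of all probe sets. In Ind-8 against tI-3, 4 were called higher (Notch1, Notch3, Jag1 and Hes1) and 2 lower (Dll1 and Jag2), against 15.6% and 15.5% of all probe sets. The rank product test called 1, and 2.02% of all probe sets. At an unadjusted p under 0.05, limma gave 4 higher and 4 lower there, beside 20.3% and 23.6% of all probe sets. In tI-3 against Con-3, 2 were called higher (Notch4 and Dll1) and 1 lower (Notch1), against 10.2% and 15.1%. There the rank product test called 0, and 2.31% of all probe sets, with 3 of the 10 genes and 18.4% of all probe sets at an unadjusted p under 0.05. By limma 4 were higher and 4 lower at an unadjusted p under 0.05, beside 17.3% and 20.0% of all probe sets. The median absolute difference over the 10 genes was 0.08, 0.38 and 0.36 in these comparisons, beside 0.16, 0.24 and 0.21 over all probe sets.

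The 10 genes span the range of levels, and the deposited values shift with level in tI-3. Over the dimmest 25% of probe sets the median Ind-8 minus tI-3 difference was -0.14, over the next 25% it was -0.22, over the 25% after that 0.10, and over the brightest 25% it was 0.13. The 25th percentile was 4.39 and 4.43 on the tI-3 arrays and 4.38 on Con-3 replicate 3, against 4.19 to 4.27 on the others. Notch4, under the 25th percentile, and Dll1 and Jag2, in the 25% above it, lie higher in tI-3, while Hes1, at a mean of 7.88, lies lower there, which are the directions of the shift. Notch1 and the uncalled differences of Hey1 and Heyl, whose signs turn after another quantile normalization, lie in its direction too. Notch3 and Jag1, lower in tI-3 than in Ind-8 and in the same 25% as Dll1, and Notch2, at a mean of 7.66 and with a difference of -0.23 that was not called, lie against it. After another quantile normalization the median of the dimmest 25% was -0.01. In Ind-8 minus tI-3 the differences were then -0.37 for Dll1, with its call kept, -0.15 for Jag2 and 0.55 for Hes1, each with its call lost, and -0.41 for Notch2, which passed. Notch1 was at 1.60 and Notch3 at 0.72 in that fit, both called. From the dimmest to the brightest 25%, the median tI-3 minus Con-3 difference was 0.07, 0.14, -0.06 and -0.13. In tI-3 against Con-3, Notch4 was at 0.25 after another quantile normalization, with its call lost (limma adjusted p = 0.1375). Dll1 kept its call there.

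**Figure D3:**
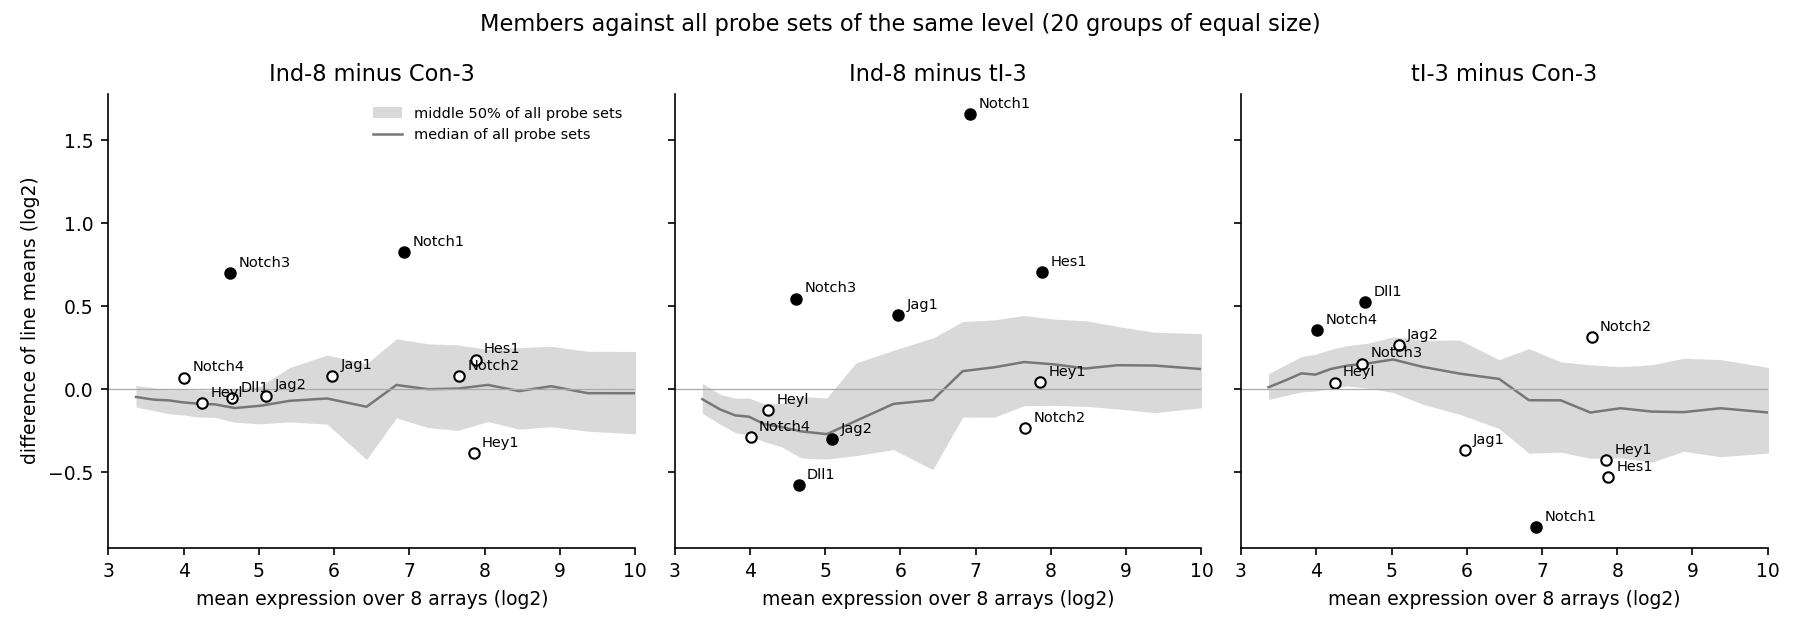
Differences of line means (log2) of the 10 genes against their mean log2 expression over the 8 arrays, over the median (line) and the middle 50% (band) of all probe sets in 20 groups of like level; filled points passed an adjusted p of 0.05. Notch1 lies outside the band in every comparison, and Jag2 lies inside it in Ind-8 minus tI-3.

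Of 53 other genes of the pathway, in 7 lists, 47 had a probe set matched here. In Ind-8 against Con-3, 7 of the 47 were called higher and 5 lower, with a median difference of 0.03. In Ind-8 against tI-3, 8 were higher and 6 lower (median 0.00), and in tI-3 against Con-3, 3 were higher and 7 lower (median -0.04). The shares over all probe sets are those given above for the 10 genes. By rank product the calls were 1 (Mib1), 0 and 1 (Hey2) in these comparisons, with 12 of the 47, and 19.8% of all probe sets, at an unadjusted p under 0.05 in the comparison that gave 0. Without Con-3 replicate 3 the limma calls numbered 7, 14 and 12, and the shares of all probe sets in that fit are not given. Most of the 47 thus did not pass, and those that did lay in both directions in each comparison. The genes named next are those with the largest difference of their list over the 3 comparisons, or with a called difference of at least 1.

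Of the 3 other ligands, Dll4, a Delta ligand, measured 4.57, 4.72 and 4.89 in Ind-8, 5.13, 5.21 and 5.32 in Con-3, and 5.01 and 5.32 in tI-3. Ind-8 was below every array of the other lines. Its difference was -0.49 from Con-3 (95% interval -0.75 to -0.24, limma adjusted p = 0.0117) and -0.44 from tI-3 (95% interval -0.72 to -0.15, limma adjusted p = 0.0281), and the latter call was lost in 5 of 17 alternative fits, among them another quantile normalization (-0.26) and the covariate (-0.25). The former was lost with the covariate alone (-0.40). So Dll1 was high in tI-3 against both lines, while Dll4 was low in Ind-8 against both. Dll4 too is of low level, at the 34.5th percentile in Ind-8, the 40.6th in Con-3 and the 38.2nd in tI-3. For both genes a low value cannot be told from background here.

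Of the 5 glycosyltransferases, Rfng, a Fringe enzyme that adds sugars to the receptors, measured 7.49, 7.48 and 7.52 in Ind-8, 7.84, 8.13 and 7.90 in Con-3, and 6.94 and 7.18 in tI-3. The lines did not overlap, with Con-3 highest and tI-3 lowest. The Ind-8 minus Con-3 difference was -0.46 (95% interval -0.69 to -0.23, limma adjusted p = 0.0099) and that of tI-3 from Con-3 was -0.89 (95% interval -1.15 to -0.63, limma adjusted p = 4.83e-04), both called in all 17 alternative fits. The Ind-8 minus tI-3 difference, 0.43 (95% interval 0.17 to 0.69, limma adjusted p = 0.0191), lost its call after another quantile normalization (0.29), with the covariate (0.45) and without tI-3 replicate 1 (0.31).

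Of the 7 genes of receptor cleavage, Ncstn, which encodes the gamma-secretase subunit nicastrin, measured 7.96, 7.92 and 8.12 in Ind-8, 7.69, 7.76 and 7.81 in Con-3, and 7.16 and 7.40 in tI-3. Here tI-3 was below both other lines. The Ind-8 mean was 0.72 above it (95% interval 0.47 to 0.97, limma adjusted p = 0.0014), a call that held in all 17 alternative fits. The tI-3 difference from Con-3 was -0.47 (95% interval -0.72 to -0.23, limma adjusted p = 0.0106), and its call was lost after another quantile normalization (-0.35) and without tI-3 replicate 1 (-0.35).

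Of the 5 genes of the nuclear complex, Rbpj, the DNA-binding partner of the cleaved receptor, measured 9.60, 9.74 and 9.49 in Ind-8, 9.92, 9.73 and 9.74 in Con-3, and 9.41 and 9.16 in tI-3. The tI-3 arrays were the lowest. The tI-3 difference from Con-3 was -0.51 (95% interval -0.78 to -0.25, limma adjusted p = 0.01) and its call was lost without tI-3 replicate 2 (-0.39). In Ind-8 minus tI-3 the difference, 0.33, did not pass (95% interval 0.06 to 0.59, limma adjusted p = 0.0591).

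Of the 7 corepressors, Tle2, a Groucho-family corepressor, measured 6.94, 7.40 and 7.23 in Ind-8, 6.11, 6.92 and 6.57 in Con-3, and 6.26 and 6.09 in tI-3. Ind-8 lay above both lines, though Con-3 replicate 2 came close. The Ind-8 mean was 0.66 above Con-3 (95% interval 0.24 to 1.07, limma adjusted p = 0.03), a call that 5 of 17 alternative fits lost, the fits without Con-3 replicate 3 (0.68) and with the covariate (0.67) among them. It was 1.02 above tI-3 (95% interval 0.55 to 1.48, limma adjusted p = 0.006), lost with the covariate (1.03) and without tI-3 replicate 2 (0.93).

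Of the 11 genes of ubiquitin transfer and trafficking, Mib1, a ubiquitin ligase that acts on the ligands, measured 6.53, 6.78 and 6.64 in Ind-8, 7.54, 7.20 and 7.53 in Con-3, and 7.40 and 7.38 in tI-3. Ind-8 lay below every other array. Its difference was -0.77 from Con-3 (95% interval -1.02 to -0.53, limma adjusted p = 0.001), called in all 17 alternative fits, and -0.74 from tI-3 (95% interval -1.01 to -0.46, limma adjusted p = 0.0023), where only the covariate ended the call (-0.67).

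Of the 9 other targets, Hey2, another HEY repressor, measured 4.75, 4.36 and 4.69 in Ind-8, 5.56, 4.80 and 4.63 in Con-3, and 3.77 and 3.56 in tI-3. Ind-8 and Con-3 overlapped, and tI-3 lay below both, at the 7.74th percentile of all probe sets, a level not shown to be above background. The tI-3 difference from Con-3 was -1.33 (95% interval -1.86 to -0.80, limma adjusted p = 0.0026), called in all 17 alternative fits. In Ind-8 minus tI-3 the difference, 0.93 (95% interval 0.41 to 1.46, limma adjusted p = 0.015), lost its call without tI-3 replicate 2 (0.83) and with the covariate (0.40).

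The next 4 genes were chosen for mention among the other called genes after their values were seen. Hes6, a HES-family gene, averaged 7.14 in Ind-8, 6.51 in Con-3 and 6.44 in tI-3, and was called higher in Ind-8 against both (0.63, limma adjusted p = 0.0031, and 0.70, limma adjusted p = 0.0031), though not against tI-3 with the covariate (0.54). Nrarp, a feedback inhibitor of Notch signalling, averaged 6.37, 5.95 and 6.31, and its call in Ind-8 against Con-3 (0.42, limma adjusted p = 0.0329) held in 11 of 17 alternative fits and was lost with the covariate (0.44) and without Con-3 replicate 3 (0.45). Myc averaged 10.23, 10.77 and 9.88, with Con-3 highest, and was called lower than Con-3 in Ind-8 (-0.54, limma adjusted p = 0.0195) and in tI-3 (-0.89, limma adjusted p = 0.0024). The Ind-8 call of Myc held in 13 of 17 alternative fits and was lost without Con-3 replicate 3 (-0.54, limma adjusted p = 0.053, with adjusted p from 0.002 to 0.0805 over these fits). Numbl, an adaptor related to the Notch inhibitor Numb, averaged 7.75, 7.32 and 7.22, and was called higher in Ind-8 against Con-3 (0.43, limma adjusted p = 0.0237) and against tI-3 (0.54, limma adjusted p = 0.0118). These calls held in 13 and 15 of 17 alternative fits, and both were lost after another quantile normalization (0.37 and 0.37).

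**Figure D4:**
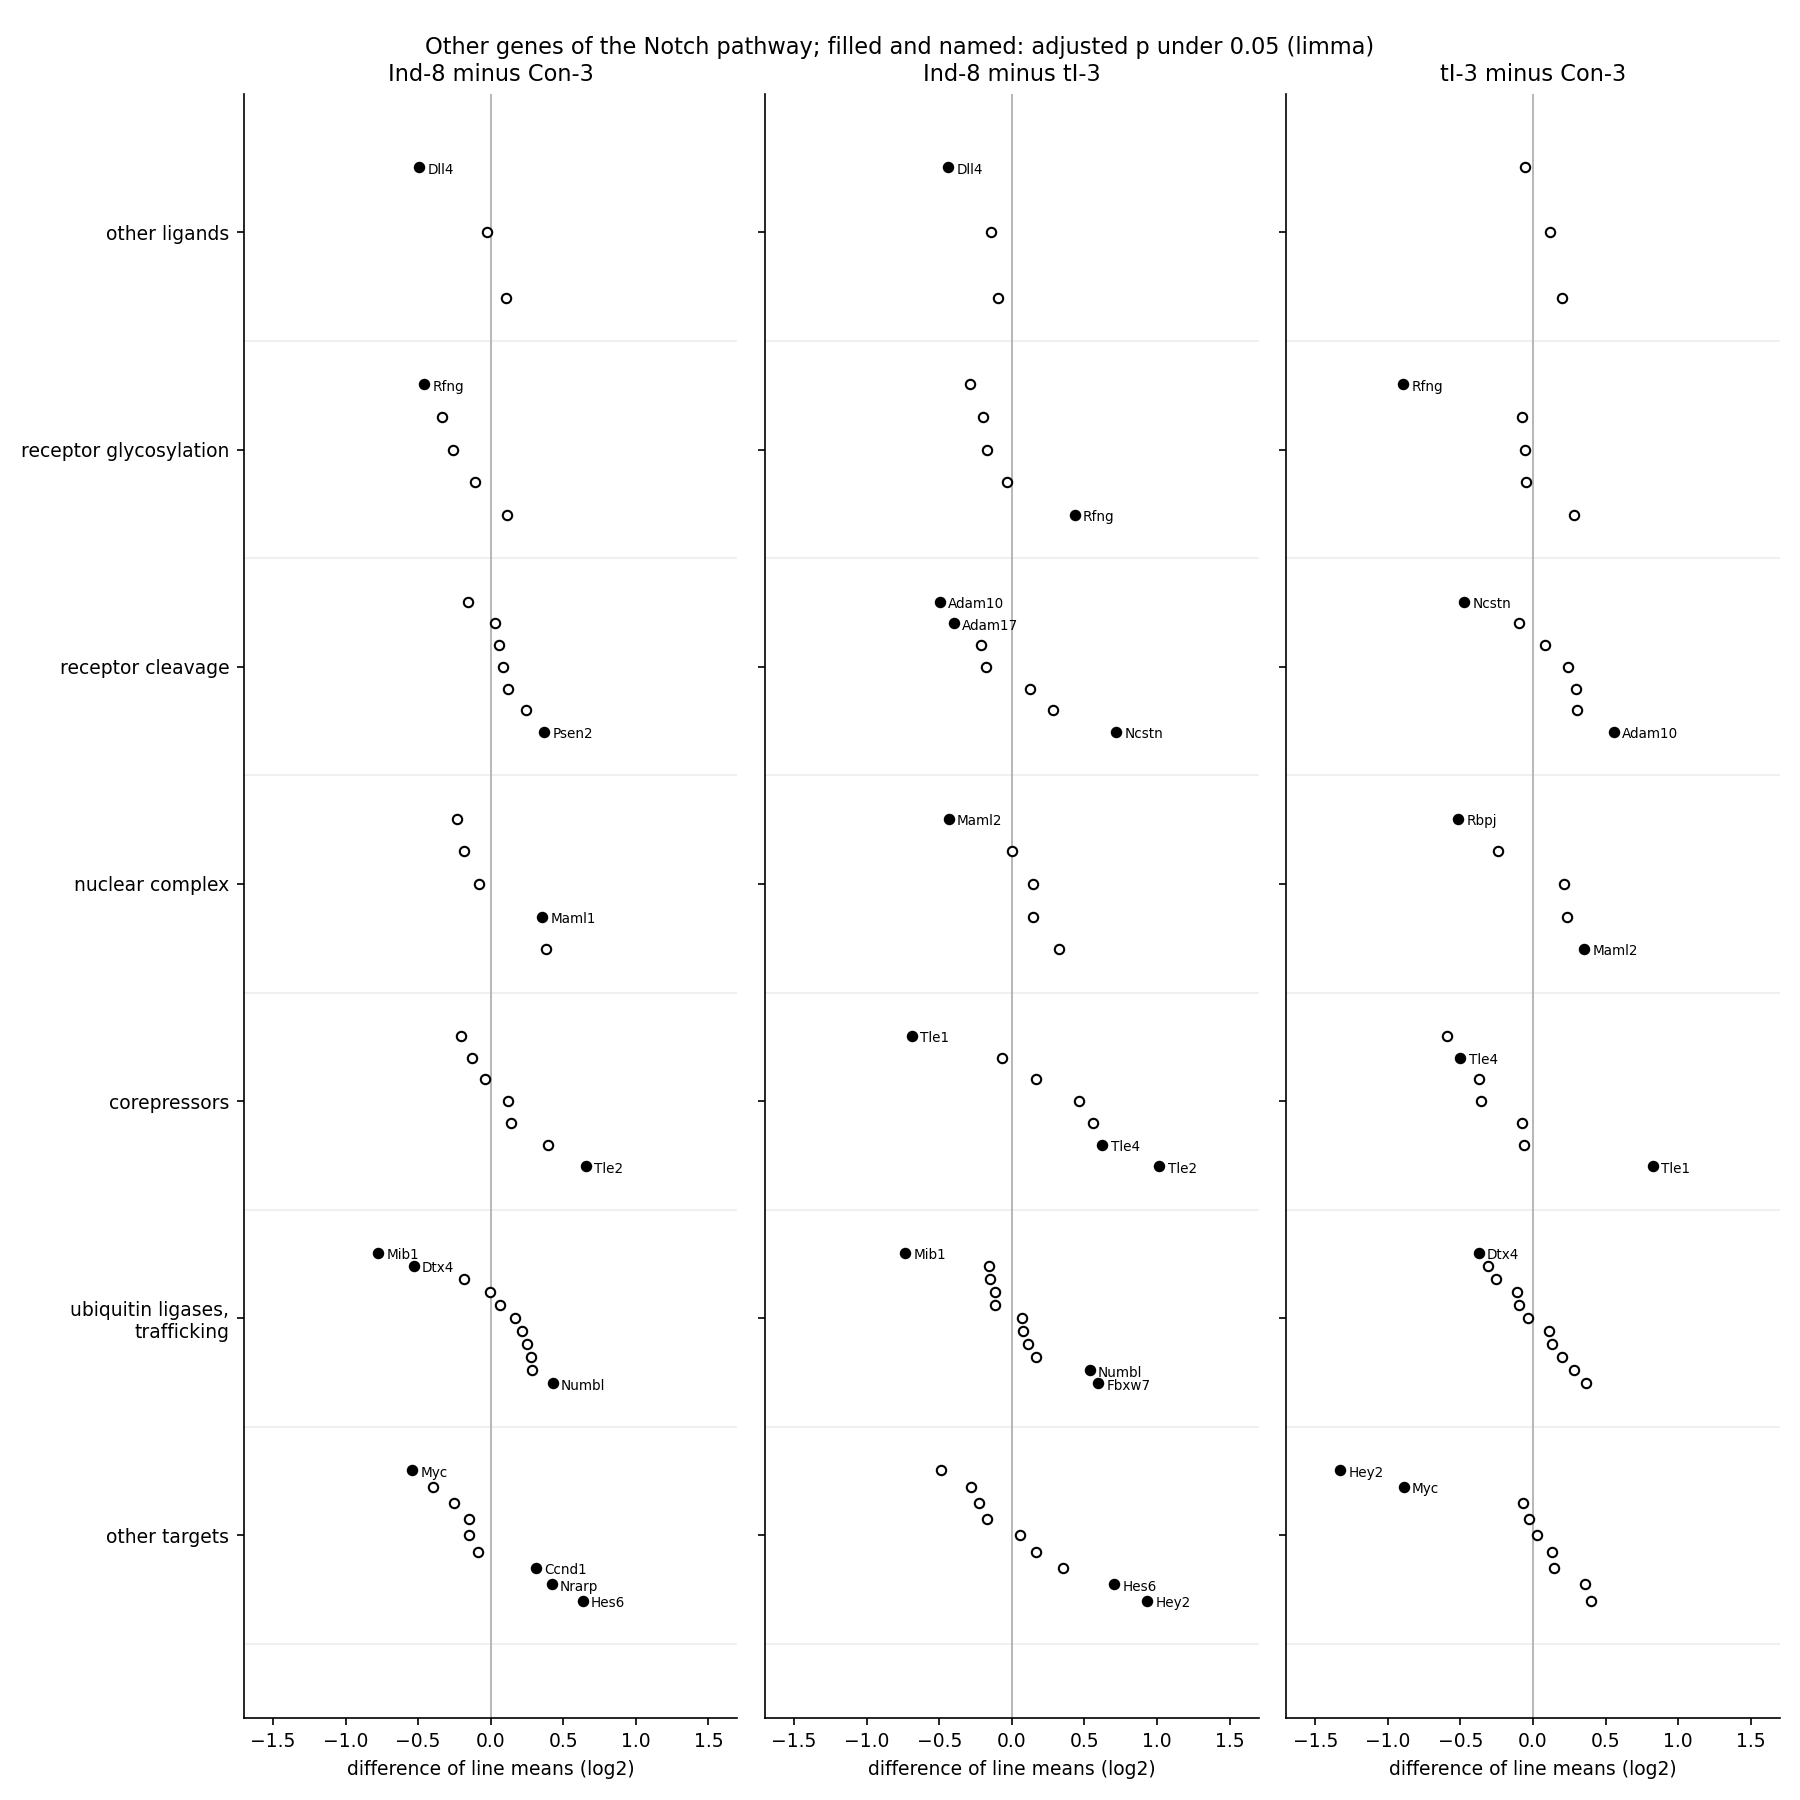
Differences of line means (log2) of the 47 other pathway genes by list, with 1 point per gene, sorted within each list and panel; filled and named points passed an adjusted p of 0.05. Filled points lie on both sides of zero in every panel, with Mib1 the lowest of Ind-8 minus Con-3 and Hey2 the lowest of tI-3 minus Con-3.

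Among the smooth muscle and pericyte markers, Actg2, Cnn1, Tagln and Acta2 were called lower in tI-3 than in either other line, and some other markers of the list were not. Of 10 such genes, 2, Myh11 and Rgs5, lay under the 25th percentile, and Acta2, smooth muscle actin, had the brightest probe set (mean 13.86 over the 8 arrays). The summed level of the 10 on the log2 scale was 14.84, 14.70 and 14.97 in Ind-8, 14.86, 14.56 and 14.79 in Con-3, and 13.50 and 13.54 in tI-3. In Ind-8 against tI-3, 4 were called higher and 1 lower, in tI-3 against Con-3, 1 higher and 5 lower, and in Ind-8 against Con-3, 1 higher and 0 lower, where an unadjusted p under 0.05 gave 3 higher and 0 lower (15.5% and 17.9% of all probe sets) and the rank product test called 0. Actg2, Cnn1 and Tagln were 4.95, 3.70 and 3.01 higher in Ind-8 than in tI-3 (limma adjusted p = 4.40e-06, 4.37e-06 and 5.76e-06), and Acta2 was 0.86 higher (limma adjusted p = 3.04e-04). Mcam was called lower in tI-3 than in Con-3 (-0.91, limma adjusted p = 0.0087, called in 16 of 17 alternative fits) and was not called between Ind-8 and tI-3. In the other direction, Myh11 differed by -0.35 between Ind-8 and tI-3 (limma adjusted p = 0.0499, called in 7 of 16 alternative fits and lost with the covariate at -0.11). Pdgfrb was 0.33 higher in tI-3 than in Con-3 (limma adjusted p = 0.03), a call that held in 11 of 17 alternative fits and was lost without Con-3 replicate 3 (0.28). It was also called higher in Ind-8 than in Con-3 (0.38, limma adjusted p = 0.0099). The pericyte gene Rgs5 and the muscle gene Des had their highest line means in tI-3 (3.97 and 6.22) and were not called. In these bulk samples, fewer cells of a type and less RNA per cell cannot be told apart. Notch3 was called higher in Ind-8 than in tI-3, as Actg2 was, and than in Con-3, as Pdgfrb was. It was not called between tI-3 and Con-3, where Actg2 was called lower in tI-3 (-4.29, limma adjusted p = 7.47e-06) and Pdgfrb higher. What part these markers have in the Notch differences was not tested.

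Markers of other cell types are given next. For these lists and for the smooth muscle list, the shares of all probe sets called higher and lower were 10.9% and 11.0% in Ind-8 against Con-3, 15.6% and 15.5% in Ind-8 against tI-3, and 10.2% and 15.1% in tI-3 against Con-3. Of 8 endothelial markers, 6 lay under the 25th percentile, Pecam1 and Cdh5 among them, and Kdr had the brightest probe set (mean 6.15). Their summed level was 7.51, 7.45 and 7.54 in Ind-8, 7.58, 7.64 and 7.71 in Con-3, and 7.85 and 7.95 in tI-3, with 1 called lower in Ind-8 against each other line and 1 called higher in tI-3 against Con-3. Notch4, the receptor of endothelial cells, was dim as well.

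Of 8 epithelial markers, 5 lay under that percentile, Epcam and Cdh1 among them, and Krt5 had the brightest probe set (mean 5.20). Their summed level was 7.36, 7.31 and 7.36 in Ind-8, 7.19, 7.32 and 7.44 in Con-3, and 7.48 and 7.58 in tI-3. Here 0 were called in any comparison by limma or by the rank product test, and at an unadjusted p under 0.05 limma gave 0 in Ind-8 against Con-3, 2 lower in Ind-8 against tI-3 (23.6% of all probe sets) and 3 higher in tI-3 against Con-3 (17.3%).

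Of 7 haematopoietic markers, 3 lay under it, Ptprc among them, and Csf1r had the brightest probe set (mean 5.47). Their summed level was 7.47, 7.43 and 7.48 in Ind-8, 7.45, 7.54 and 7.61 in Con-3, and 7.80 and 7.82 in tI-3, with 4 called lower in Ind-8 against tI-3 (15.5% of all probe sets) and 2 called higher in tI-3 against Con-3 (10.2%). Between Ind-8 and Con-3, 0 were called by either test and 0 at an unadjusted p under 0.05 in limma. Of 8 neural markers, 4 lay under it, Sox2 among them, and Nes had the brightest probe set (mean 6.70). Their summed level was 7.86, 7.87 and 8.01 in Ind-8, 8.11, 8.24 and 8.21 in Con-3, and 8.11 and 8.27 in tI-3, with 1 called lower in Ind-8 against Con-3, 1 higher and 2 lower in Ind-8 against tI-3, and 1 lower in tI-3 against Con-3. Whether any of these cell types was present was not tested.

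Genes of the most similar pattern were sought for the receptor, ligand and target whose line means ranged most widely, among genes outside the lists, by the root-mean-square (rms) difference of log2 values over the 8 arrays after each gene was centred on its own mean. For Notch1, the nearest were Nedd9 (rms 0.155, r = 0.979), Msrb1 (0.161, 0.973) and Mtss2 (0.173, 0.975). Nedd9 averaged 7.13 in Ind-8, 6.55 in Con-3 and 5.72 in tI-3, the order of Notch1. For Dll1 they were Trp53i11 (rms 0.057, r = 0.987), Klk1b21 (0.0636, 0.971) and Rnf32 (0.064, 0.969), of which Trp53i11 averaged 5.95, 5.99 and 6.40. For Hes1 they were Sc5d (rms 0.0978, r = 0.966), Polr3a (0.0994, 0.962) and Zfp160 (0.104, 0.972), of which Sc5d averaged 10.25, 10.00 and 9.57. The genes were picked for likeness, so no p-value is given, and what they share with the Notch genes was not tested.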

How the data were processed

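RNA of 8 cultures, 3 of Ind-8, 3 of Con-3 and 2 of tI-3, was measured on Affymetrix mouse arrays. The deposited values are log2 expression, made by the authors with RMA (background correction, quantile normalization over the 8 arrays, summary per probe set) on probe sets redefined by RefSeq transcript. All 8 value columns matched a sample, and 0 were left unmapped. Of 22587 probe sets, 64 Affymetrix controls were set aside and 22523 were tested, with 18172 distinct profiles. A table of RefSeq genes (GRCm38.p6) gave symbols to 18294 (81.2%), for 15653 genes, and probe sets of a gene with identical values were counted once.

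One limma fit (3.58.1, R 4.3.3) with a mean per line gave all 3 comparisons, and p-values were adjusted by Benjamini-Hochberg over every probe set tested. The rank product test was written anew in Python 3.11.15 (numpy 2.4.6, pandas 2.3.3, scipy 1.17.1; figures with matplotlib 3.10.9) with 100 permutations, and was tested on simulated data. All 10 genes are described whether called or not, and of the other pathway lists the gene of largest difference and every called gene with a difference of at least 1. The dim end is the lowest 25% of probe sets by mean over the arrays (under 4.30). Alternatives were another quantile normalization, centring on array medians, probe sets above the 25th percentile, identical profiles counted once, controls kept, only the 2 lines compared, a trend in the prior, replicate number as a block, the hybridization controls as a covariate, each array left out, an adjusted p under 0.01, a difference of at least 1, and for rank product another seed and a pfp under 0.01.

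Listed genes with no probe set matched here were not analysed. With 2 or 3 arrays a line, precision rests on the variance shared over lines and probe sets. The members and lists were chosen with earlier results of these data known.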

Additional observations from a re-analysis of the deposited data

How the results depend on the processing

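Each value here is a count of called genes or a log2 difference under an alternative, and the cause of each change was not tested. The shares of all probe sets called under the alternatives are not given. Whether a change in a count is particular to these genes therefore cannot be told. Of 504 differences of the 10 genes under alternatives, 442 stayed as they were, called or not, 33 lost a call, 14 gained one and 15 turned sign. In Ind-8 against Con-3 the 2 calls among the 10 genes became 0 at a difference of at least 1, and the 12 among other pathway genes became 7 with the hybridization controls as a covariate, 4 at an adjusted p under 0.01, 0 at a difference of at least 1, and 7 to 12 with an array left out. In Ind-8 against tI-3 the 6 calls became 2 with the covariate, 3 at an adjusted p under 0.01, 1 at a difference of at least 1 and 3 to 5 with an array left out. The 14 among other pathway genes became 3, 5 and 1 at these settings and 7 to 16 with an array left out, and the rank product count ran from 0 to 1. In tI-3 against Con-3 the 3 calls became 0 at a difference of at least 1, and the 10 among other pathway genes became 5 at an adjusted p under 0.01, 1 at a difference of at least 1 and 6 to 12 with an array left out. There Notch1 and Dll1 kept their calls with the covariate (-0.92 and 0.42), at an adjusted p under 0.01 and with any array left out. Notch4 lost its call with the covariate and at that threshold, and of the fits with an array left out kept it only without Con-3 replicate 2. Notch2 gained a call without Con-3 replicate 3, and Hey1 without Con-3 replicate 2. These are not all the calls gained, since over the 17 alternative fits Jag2 was called in 1 and Hes1 in 2.

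With replicate number as a block, the 3 calls of tI-3 against Con-3 became 6 (2 higher, 4 lower), Hes1 among them (-0.61), and other pathway genes gave 14, 17 and 14 calls. The block would suit paired cultures, but deviations from the line mean on arrays of the same number correlated at 0.27, 0.0093, 0.0286, -0.2253, 0.3814, 0.2046 and 0.0424, so the numbers were not taken to pair the samples.

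Signs turned only in differences that were not called. In Ind-8 against Con-3, after another quantile normalization, Jag2 was 0.0078 and Dll1 0.0278, and with the covariate Jag1 was -0.0354, Jag2 9.0e-04, Dll1 0.0516 and Hes1 -0.0227. With an array left out, Notch4 ran from -0.013 to 0.1613, Jag1 from -0.0093 to 0.1818 and Dll1 from -0.1234 to 0.0366. In Ind-8 against tI-3, another quantile normalization gave Hey1 -0.137 and Heyl 0.0593, and with an array left out Hey1 ran from -0.0303 to 0.1261. In tI-3 against Con-3 it gave Heyl -0.0734, and with an array left out Heyl ran from -0.0068 to 0.0857.

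No scaling moved the median of all probe sets by over 0.1. When a tI-3 array is left out, the other is assumed to vary as arrays of the other lines do. The series values hold no background or detection call, and the calls in the study's supplement, for genes it selected, were not used, so here for Notch3, Notch4, Dll1, Jag2, Heyl, Dll4 and Hey2 a low value cannot be told from background.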
